A study of Prunus persica with 4 samples.

Results

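Of the 186 candidate miRNAs in the deposited table of peach (Prunus persica), 9 with sequences of conserved plant miRNA families other than miR169 are described here. They were chosen by sequence and not by their counts, and they are not every such candidate, since 5 more precursors held an exact sequence of a further family (miR162, miR172, miR390 or miR4414). In 7 of them the sequence listed for an arm of the hairpin was identical to a known member of miR157, miR160, miR166, miR167, miR171 or miR399, and the precursors of miRC22 and miRC35 held the miR394 sequence. The reads came from 1 small RNA library of untreated trees of the cultivar Lovell, made from young leaves, young stems and flower buds mixed before sequencing, so no value belongs to a tissue and no value has a replicate error. Whether a low count came from fewer cells of a type or from less RNA per cell cannot be told apart in such a mixture. The 3 degradome libraries, which capture cleaved mRNAs of leaves, stems and flowers, were not analysed here.

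A plant miRNA is cut from a hairpin precursor as a duplex of a pair of strands, from the 5′ arm (5p) and the 3′ arm (3p), whose 3′ ends protrude. The strand that is kept to direct silencing of mRNAs is called the guide here, and its partner, usually short-lived, the passenger or miRNA*. The guides of miR157, miR160, miR167 and miR394 lie on the 5p arm in other plants, and those of miR166, miR171 and miR399 on the 3p arm. All 7 families act in growth or nutrition. miR157, a close relative of miR156, restrains the SQUAMOSA promoter-binding-like factors that promote the adult phase. miR160 and miR167 act on different auxin response factors, miR166 on HD-ZIP transcription factors of leaf polarity and meristems, miR171 on GRAS factors of the meristem, miR394 on an F-box protein of the shoot apex, and miR399 on a ubiquitin-conjugating enzyme of phosphate homeostasis.

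The sequences listed in the table carry the results that follow, and are written here as DNA, 5′ to 3′, with bases 2 to 8 (the seed) in capitals.
miRC74 (miR157, 3p): gCTCTCTAtgcttctgtcatc
miRC127 (miR166, 5p): gGAATGTTgtctggctcgagg
miRC3 (miR167, 3p): aGATCATGtggcagtttcacc
miRC64 (miR160, 5p): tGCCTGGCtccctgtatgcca
miRC99 (miR160, 5p): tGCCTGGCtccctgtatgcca
miRC22 (miR394, 3p): gGAGGTGGtcagcatgtcaaa
miRC35 (miR394, 3p): aGGTGGGCatactgccaact
miRC67 (miR171, 3p): cGAGCCGAatcaatatcactc
miRC114 (miR399, 3p): tGCCAAAGgagatttgcccgg
Only miRC64 and miRC99 shared a seed, since the listed sequence of both was the same. No other candidate of the table had a listed sequence within 2 mismatches of any of these 9. The listed sequence was 21 nt long in 8 of the 9 and 20 nt in miRC35, while 33.9% of all 186 candidates had a most abundant sequence of 21 nt. It began with T in 3, with G in 3, with A in 2 and with C in 1. Over all 186 candidates the most abundant sequence began with T in 75, with A in 60, with G in 28 and with C in 23. In 7 of the 9 the length and the first base came with the choice. Those candidates were chosen because the listed sequence was identical to a known miRNA, in each case of 21 nt.

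By the arm that the family uses in other plants, the listed strand was the passenger in 5 of the 9 candidates (miRC74, miRC127, miRC3, miRC22 and miRC35) and the guide in 4 (miRC64, miRC99, miRC67 and miRC114). The 9 precursors had 686 reads, which is 4.37% of the 15705 reads of the table (95% Wilson interval 4.06 to 4.70%). Of these, 605 were on the precursors that list the passenger (88.2%, interval 85.6 to 90.4%) and 81 on those that list the guide. The guides of the 5 precursors that list the passenger have no listed reads in this table. The split therefore does not compare the abundance of guides with that of passengers. The 2 miR160 candidates list the same guide, and with each distinct sequence counted once, an alternative added after seeing the data, 49 listed reads were guides and 598 passengers (92.4% of 647). The share by precursor leans on miRC127, and without that candidate, an alternative chosen after seeing the data, 245 of 326 reads were on precursors that list the passenger (75.2%). The counts of the 2 sets overlapped, from 5 to 360 reads per precursor where the passenger was listed and from 8 to 33 where the guide was. Intervals of counts and shares cover counting error in 1 library only, and not the choice of candidates. Reads from an amplified library are not independent molecules, so these intervals may be too narrow even for counting error. Sequences listed at more than 1 locus are also counted at each, and 18.6% of the listed arm reads of the table are such repeats.

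**Figure D1:**
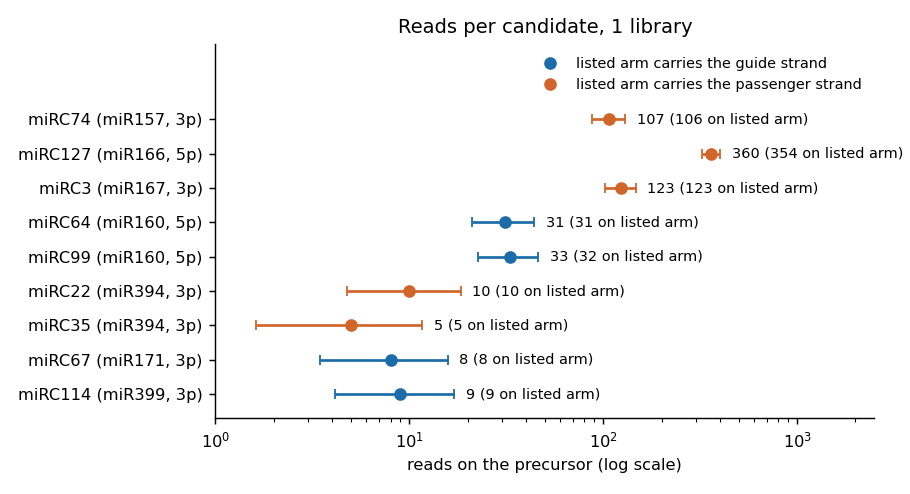
Reads on the precursor of each candidate, on a log axis, with the 95% exact Poisson interval as a bar and colour for the kind of strand listed. miRC127, miRC3 and miRC74 sit above 100 reads, and the other 6 candidates at 33 reads or fewer.

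The counts fell into 2 ranges. miRC127, miRC3 and miRC74 together had 590 reads, 86.0% of the reads of the 9, and ranked 14, 27 and 29 among the 186 candidates. The other 6 had between 5 and 33 reads, and 4 of these had 10 or fewer. For comparison, 78.0% of all candidates had fewer than 50 reads and 34.9% had 10 or fewer. The median was 31 reads per precursor in the 9 candidates and 13 in the table, and 5 of the 9 were above the median of the table.

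No candidate of the 9 had a sequence listed on both arms, whereas 46 of the 186 candidates did. In 6 of the 9 every read of the precursor was counted for the listed sequence, as in 95 of the 186 candidates. Over the 9, 8 of the 686 reads lay elsewhere on a precursor, against 254 of the 15705 reads of the table. The opposite side of most of these hairpins held a known sequence. In 6 of the 9 precursors (miRC74, miRC127, miRC3, miRC64, miRC22 and miRC35) the opposite arm held an exact sequence of the same family from a list of 117 conserved miRNA sequences that accompanies the study, and the table listed no read for it. The paper's results describe that list as perfect matches to reads of this same library, with their counts in a source not used here. By that description these sequences were detected, although the candidate table lists no reads for them. The paper's methods, however, allow mismatches in that search, so detection of the exact sequences is not certain. For miRC22 and miRC35 that opposite sequence was also what chose them. miRC74, miRC127, miRC3 and miRC64 were chosen by the listed strand of the family. Because the arms of a hairpin pair, that choice already made a family sequence opposite it likely. In 5 of these 6 the unlisted sequence was the guide of the family, and in miRC64 it was the passenger of miR160. The methods describe taking reads that match known miRNAs out before candidates were sought. The listed sequences of 7 of the 9 were themselves on the conserved list, and the part of that step in the missing arms was not tested. Counts and shares of an arm therefore describe the reads of this table only, and an arm with no listed read has no upper limit from it.

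**Figure D2:**
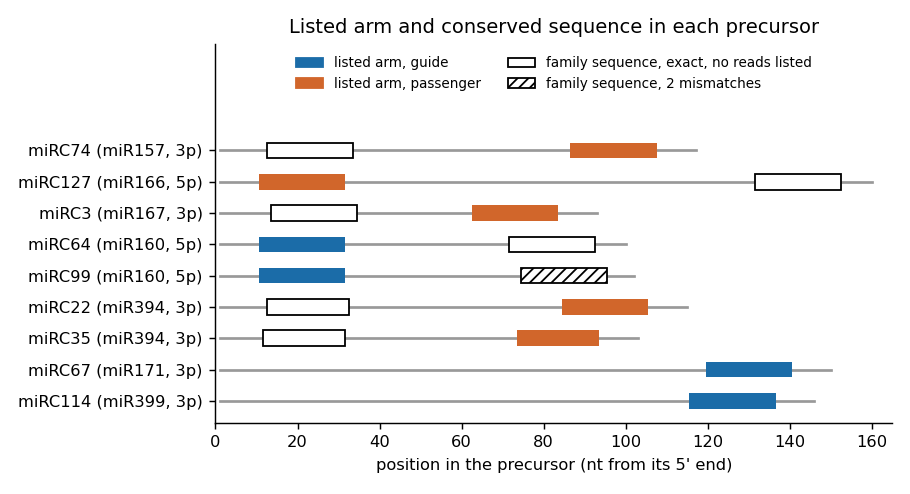
Position of the listed arm (filled) and of the conserved family sequence on the opposite arm (open) in each precursor, in nt from its 5′ end. miRC67 and miRC114 have no open box, and the hatched box of miRC99 marks a match with 2 mismatches.

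miRC127 had the most reads of the 9, 360 on a precursor of 160 nt at scaffold_5:12581626-12581785 (plus strand, position as deposited). Its 5p sequence, the passenger of miR166, had 354 reads, which is 98.3% of the precursor's (interval 96.4 to 99.2%). The remaining 6 reads were not assigned to a listed sequence, and no 3p sequence was listed. In the precursor both strands of the duplex are in capitals, the listed passenger first and the miR166 guide after it.
miRC127: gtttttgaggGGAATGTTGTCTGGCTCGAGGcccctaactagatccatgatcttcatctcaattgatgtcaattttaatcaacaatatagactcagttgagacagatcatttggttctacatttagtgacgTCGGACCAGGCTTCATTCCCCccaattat
The guide ran from position 132 to 152, 100 nt beyond the passenger, the widest gap among the 7 duplexes measured. It matched the miR166 sequence exactly and differed from the miR165 sequence of the conserved list by C17T, with the listed miR165 base first and positions counted from its 5′ end. The strands formed 15 base pairs, 1 of them a G:U wobble, with 2 nt protruding at each 3′ end. In the deposited structure the passenger had 5 unpaired bases, at positions 7, 8, 15, 16 and 20, the most of the 9.

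miRC3, in the miR167 family, had 123 reads in the table, all of them on the 3p sequence. The precursor of 93 nt was the shortest of the 9 and lies at scaffold_1:1563819-1563911 (plus strand). Capitals mark the miR167 guide, for which the table listed no reads, and then the listed passenger.
miRC3: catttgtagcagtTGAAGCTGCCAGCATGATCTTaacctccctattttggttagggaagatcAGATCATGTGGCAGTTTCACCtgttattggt
The guide in this hairpin ends in TT, and it was an exact match to 1 of the miR167 sequences of the conserved list. It differed from the form of miR167a known from Arabidopsis by A21T, and from the form of miR167d known from rice by G21T. The strands formed 19 base pairs, the most of the 7 duplexes, with 1 G:U wobble pair. The 3′ end protruded by 1 nt on the guide and by 2 nt on the passenger, and only base 20 of the passenger was unpaired.

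miRC74, in the miR157 family, had 107 reads, of which 106 were on the 3p passenger (99.1%, interval 94.9 to 99.8%) and 1 lay elsewhere. Its precursor of 117 nt lies at scaffold_3:10599621-10599737 (plus strand), with the guide of miR157 first and the listed passenger second in capitals.
miRC74: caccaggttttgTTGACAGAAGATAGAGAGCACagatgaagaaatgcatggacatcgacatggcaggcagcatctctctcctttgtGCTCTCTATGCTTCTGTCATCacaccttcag
The guide matched 2 miR157 sequences of the conserved list exactly, ath-miR157a of 21 nt and ath-miR157d of 20 nt, which lacks the first base. The closest miR156 sequences of that list differed from it by 1 base each, such as smo-miR156b by C1T, smo-miR156c by A12T and mtr-miR156g by G17A, the miR156 base first. The strands formed 18 base pairs, all of them Watson-Crick, and bases 10 and 20 of the passenger were unpaired. With ath-miR157a taken as the guide, the 3′ end protruded by 2 nt on the guide and by 1 nt on the passenger. The shorter ath-miR157d spans positions 14 to 33, the stretch for which 2 nt protrude at each 3′ end.

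The miR160 family was found at 2 loci with the same guide. miRC64, at scaffold_2:21004706-21004805 (minus strand), had 31 reads, all on the 5p guide. miRC99, at scaffold_4:5325323-5325424 (plus strand), had 33 reads, of which 32 were on the guide (97.0%, interval 84.7 to 99.5%) and 1 lay elsewhere. The Poisson intervals of the precursor counts, 21.1 to 44.0 for miRC64 and 22.7 to 46.3 for miRC99, overlapped. Since the sequence is the same, a read of it cannot be placed at one locus or the other, and these counts are not separate evidence. Why the listed counts of 31 and 32 reads for one sequence differ was not tested. Capitals mark the guide and then the stretch opposite it.
miRC64: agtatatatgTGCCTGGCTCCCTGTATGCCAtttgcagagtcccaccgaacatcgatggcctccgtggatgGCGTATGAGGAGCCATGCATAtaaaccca
miRC99: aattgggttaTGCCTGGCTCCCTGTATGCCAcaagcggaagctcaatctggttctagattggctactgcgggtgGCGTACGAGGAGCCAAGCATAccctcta
Outside the guide the precursors differed, with 36 edits between them over 100 and 102 nt (64.7% identity). The 40 and 43 nt between the strands, aligned on their own, differed by 21 edits. The passenger of miRC64 was identical to the known miR160* sequence, and that of miRC99 differed from it by T6C and T16A. Passenger reads would therefore distinguish the 2 loci, but the candidate table listed none at either and does not place the 1 other read of miRC99. The passenger of miRC64 is on the conserved list, whose counts were not used here. In both duplexes 2 nt protruded at each 3′ end, and base 4 and base 12 of the guide were unpaired. The deposited structure left base 13 unpaired as well in miRC64.

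The miR394 family was also found at 2 loci, on scaffold 1. miRC22, at scaffold_1:43600157-43600271 (plus strand), had 10 reads and miRC35, at scaffold_1:32136126-32136228 (minus strand), had 5, the fewest that any candidate of the table had. All of these reads were on the 3p passenger, with Poisson intervals of 4.80 to 18.4 and 1.62 to 11.7 reads that overlapped. Capitals mark the miR394 guide, which is identical at both loci, and then the listed passenger.
miRC22: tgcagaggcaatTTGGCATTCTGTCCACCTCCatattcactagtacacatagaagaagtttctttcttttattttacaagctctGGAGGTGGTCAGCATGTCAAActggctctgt
miRC35: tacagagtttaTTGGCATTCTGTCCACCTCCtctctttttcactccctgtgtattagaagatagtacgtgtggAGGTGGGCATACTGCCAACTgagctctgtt
Here the passengers, not the guide, distinguish the loci. The 20 nt that face the guide differed at 5 positions, given as the base of miRC22, the position from the 5′ end of the facing stretch, and the base of miRC35: T9G, G12T, C13A, A14C and T17C.
miRC22: ggaggtggtcagcatgtcaa
miRC35: ggaggtgggcatactgccaa
The listed passengers also started at different points of this stretch. In miRC22 the passenger began at its first base and ended 1 nt beyond it, so the guide had no protruding 3′ end (0 nt). In miRC35 it began 2 nt later and ended 2 nt beyond, and the duplex had 2 nt protruding at each 3′ end. With 10 and 5 reads, strands with other ends could have gone undetected at this depth.

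miRC67 and miRC114 listed the guide, and their other arm held no family sequence of the conserved list within 2 mismatches. miRC67, in the miR171 family, had 8 reads, all on the 3p guide, and lies at scaffold_2:26024413-26024562 (minus strand). miRC114, in the miR399 family, had 9 reads, all on the 3p guide, and lies at scaffold_4:3161728-3161873 (minus strand). On the opposite arm the closest sequence of the same family on the conserved list had 7 mismatches in miRC67 and 11 in miRC114. It was gma-miR171k for miRC67 and, for miRC114, ath-miR399f, the guide that miRC114 itself lists. The search therefore cannot tell whether a known passenger of either family lies there. Capitals mark the listed guide.
miRC67: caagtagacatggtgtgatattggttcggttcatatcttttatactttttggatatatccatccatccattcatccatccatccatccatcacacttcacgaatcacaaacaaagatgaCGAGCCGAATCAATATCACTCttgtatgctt
miRC114: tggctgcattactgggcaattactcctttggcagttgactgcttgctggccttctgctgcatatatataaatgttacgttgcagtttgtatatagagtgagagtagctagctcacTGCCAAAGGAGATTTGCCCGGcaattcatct
The stretch that faces the guide, drawn so that 2 nt protrude at each 3′ end, was gtgatattggttcggttcata in miRC67 and gggcaattactcctttggcagt in miRC114, and neither had listed reads.

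In the deposited structures the listed strand had a median of 2 unpaired bases, with 1 in miRC3 and 5 in miRC127, against a median of 3 in the table, and it had 3 or fewer in 8 of the 9, as had 66.1% of all candidates. Base 12 and base 20 were unpaired in 4 of the 9 candidates each and base 13 in 3, while bases 2, 3, 5, 6, 11, 14, 17, 18 and, in the 8 sequences that have it, 21 were paired in all. At base 12 both miRC64 and miRC99 are counted, which list the same sequence. These counts pool 5p with 3p strands and were not set against all candidates. Refolded with RNAfold, 7 of the 9 had 3 or fewer unpaired bases, against 67.7% of all candidates, and miRC127 and miRC35 had 4 each, the most of the 9. Base 12 was then unpaired in 3 candidates and base 13 in 2, base 20 remained unpaired in 4, and base 11 was unpaired in miRC35.

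**Figure D3:**
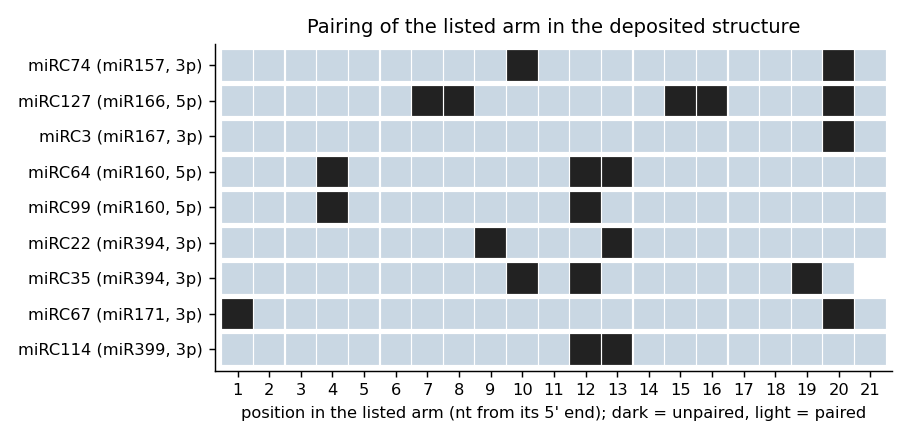
Paired (light) and unpaired (dark) bases of each listed sequence by position from its 5′ end, in the deposited structures. Positions 12 and 20 are each unpaired in 4 of the 9 and position 13 in 3. miRC64 and miRC99, which list the same sequence, both count at position 12. miRC35 has no base 21.

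The folding free energies, given as their size, ran from 41.69 kcal/mol in miRC67 to 63.8 kcal/mol in miRC99, with a median of 51.2 kcal/mol against 47.35 kcal/mol over the table. Per 100 nt of precursor the median was 44.5 kcal/mol in the 9 candidates and 36.8 kcal/mol in the table. miRC99 had 62.5 kcal/mol per 100 nt and ranked 10 of 186, miRC64 had 52 and ranked 20, and miRC3 had 49.7 and ranked 27. miRC67 had 27.8 and ranked 137. Every one of the 9 precursors extended exactly 10 nt beyond the outer end of its listed sequence, as did 180 of the 186 candidates. That end of the precursor therefore lay at a fixed distance from the listed sequence. The other end was not examined in this way, and how far length and energy depend on where the reads lay was not tested. The GC content ran from 38.0% in miRC67 to 53.9% in miRC99, with a median of 44.5% against 37.9% over the table. Candidates are not replicates, so these are descriptions and the differences from the table were not tested.

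**Figure D4:**
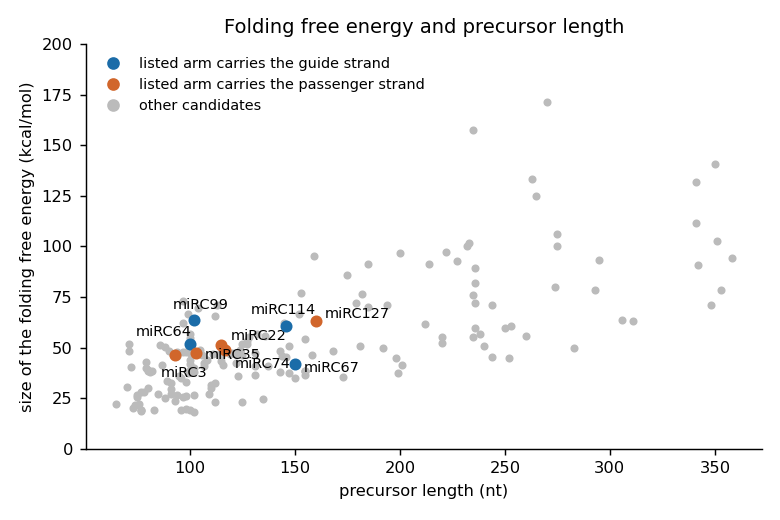
Size of the deposited folding free energy in kcal/mol against precursor length in nt for the 186 candidates, with the 9 of conserved families in colour. The 9 lie between 93 and 160 nt and between 41.69 and 63.8 kcal/mol, inside the cloud of the other candidates.

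The 9 loci lay on 5 scaffolds and none had another of the 9 as its nearest candidate. The shortest distance was to miRC36, which starts 1568 nt from the start of miRC35 on the same strand, had 5 reads and held no sequence of the conserved list. For the other 8 the nearest candidate started between 104185 nt (miRC67) and 1175194 nt (miRC114) away.

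An exact sequence of the conserved list occurred in 20 of the 186 precursors. These were the 9 candidates described here, 6 of the miR169 family and 5 others, which were picked out after their values were seen. The others were miRC49 and miRC151 (miR172), miRC18 (miR4414), miRC137 (miR162) and miRC147 (miR390), and in all 5 a conserved sequence lay away from every listed arm, as in 6 of the 9. In miRC137 and miRC147 the listed sequence was itself an exact miRNA* of the conserved list. miRC49 had 410 reads and miRC151 had 332, while the remaining 3 had between 8 and 10. None of these 5 had a listed sequence near those of the 9.

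The targets that the study lists for these candidates under their own names are few. They are auxin response factors for miRC64, a lysophosphatidyl acyltransferase for miRC67 and a protein with ENTH, VHS and GAT domains for miRC35. miRC99 is not named there, although its listed sequence is the same as that of miRC64. In a further target list of the study, the listed sequence of miRC127 appears under miR166, with an ABC1 family protein. For miRC3, miRC22, miRC74 and miRC114 no target is listed under the candidate's name or its listed sequence. Targets that the study lists under family names were not gathered here. The paper, for example, names SQUAMOSA promoter-binding-like factors among the targets of miR156 and miR157. The target lists were searched by candidate name and by listed sequence only, and cleavage was not measured here.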

How the data were processed

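Low molecular weight RNA of the mixed tissues was sequenced once by the authors, who trimmed adaptors, kept reads of 18 to 30 nt, removed reads matching rRNA, tRNA, snRNA and snoRNA, compared the rest with miRBase 18 and used those without a match to search the peach genome (version not given in the sources used here) for hairpins with MIREAP at default parameters. The deposited table holds raw read counts per precursor and per listed arm, not normalized, and the authors' folding free energies in kcal/mol; Mfold 3.2 was used to check structures. The table has 1 total of 15705 reads, and precision is limited by counting error. Its positions are given as deposited and were not joined to genes.

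The members and lists were chosen with earlier results of these data known. All 9 members were named, and other candidates only where their precursor or listed sequence matched. Sequences of conserved miRNAs and primers were read from the study's supplementary lists, without values. They were matched to precursors without gaps, and arms, pairs and 3′ overhangs were read from the deposited structures with code tested on simulated hairpins. Guide arms are background knowledge. Shares have 95% Wilson intervals and counts exact Poisson intervals (scipy 1.17.1, numpy 2.4.6, python 3.11.15), and precursors were refolded with RNAfold 2.7.2. No test was run, because there was 1 library. Alternatives were the count used, distinct sequences counted once, RNAfold in place of the deposited structure, and up to 2 mismatches.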

Additional observations from a re-analysis of the deposited data

How the results depend on the processing

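With each distinct sequence counted once, the 9 candidates held 5.15% of the reads in place of 4.37%, above the interval of the latter, since this way of counting drops 18.6% of the listed arm reads of the table and 4.57% of those of the 9. Without miRC127, an alternative added after seeing the data, 75.2% of the reads of the 9 were on precursors that list the passenger, in place of 88.2%. With each distinct sequence counted once, also added then, that share was 92.4%, and the reads on precursors that list the guide were 49 in place of 81. The other results kept their values or moved little. The reads of the 9 were 686 by precursor, 678 by listed arm and 647 by distinct sequence. Candidates with a family sequence on the opposite arm numbered 6, and 7 with up to 2 mismatches, the addition being miRC99. Precursors with a conserved sequence numbered 20, 23 with up to 1 mismatch and 26 with up to 2. RNAfold gave a median energy of 49.1 kcal/mol in place of 51.2 and the same overhangs in the 7 duplexes measured, and 7 candidates in place of 8 had 3 or fewer unpaired bases in the listed strand. Depth limits most the 4 candidates of 10 reads or fewer. The methods describe setting reads of known miRNAs aside before candidates were sought, yet 7 of the 9 listed sequences were on the conserved list. The part of that step in the missing arms was not tested, and an arm without listed reads has no upper limit from this table. No paired analysis was possible because the series holds a single small RNA library.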
